A study of Mus musculus with 6 samples.

Results

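The genes described are 7 long noncoding RNAs: Malat1, Neat1, Kcnq1ot1, Meg3, Rian, Mirg and H19. They were taken by symbol from the deposited count table, which holds 49315 genes, and all 7 were found. RNA came from mid-ventricular heart tissue of adult mice, 3 labelled wild type (WT) and 3 labelled TET2KO, which lack Tet2 in endothelial cells by design. Tet2 is an enzyme that starts the removal of DNA methylation by oxidising methylated cytosine. Both groups had received Angiotensin II, a hormone that raises blood pressure, at 1.0 mg/kg/day from subcutaneous osmotic minipumps for 28 days. No untreated mice were compared here, so every difference below is between 2 Angiotensin II groups. The sources used here name neither the driver of the endothelial deletion nor the deleted exons, and give no exact age. Per the design text, the 3 samples of each group are biological replicates. In this mid-ventricular tissue endothelial cells are mixed with all others. In such tissue, fewer cells of a type and less RNA per cell cannot be told apart.

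Malat1 and Neat1 are among the best known RNAs that stay in the nucleus. Malat1 gathers in nuclear speckles, bodies rich in splicing factors, while the long form of Neat1 is the scaffold on which paraspeckles assemble with proteins such as Sfpq and Nono. The other members come from imprinted regions, where only the copy from one parent is active and DNA methylation at a control region keeps the copies apart. H19 and Kcnq1ot1 lie in neighbouring imprinted domains on chromosome 7, H19 being expressed from the maternal and Kcnq1ot1 from the paternal copy. Meg3, Rian and Mirg follow each other on the maternal copy of chromosome 12 in the Dlk1-Dio3 region. Rian hosts small nucleolar RNAs and Mirg a large cluster of microRNAs.

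In the GENCODE M21 annotation (GRCm38), Malat1 (ENSMUSG00000092341, chr19:5795690-5802672, minus strand) is a single exon of 6983 nt. Neat1 (ENSMUSG00000092274, chr19:5824708-5845478, minus strand) lies 22.04 kb away, and its longest transcript is a single exon of 20771 nt. H19 (ENSMUSG00000000031, chr7:142575529-142578143, minus strand) has a longest transcript of 2286 nt in 5 exons. Kcnq1ot1 (ENSMUSG00000101609, chr7:143203458-143296549, minus strand) is a single exon of 93092 nt that lies inside the protein-coding gene Kcnq1 on the opposite strand. On the plus strand of chromosome 12, Meg3 (ENSMUSG00000021268, chr12:109541001-109571726) is followed after 32.21 kb by Rian (ENSMUSG00000097451, chr12:109603940-109661716), and after a further 68.0 kb by Mirg (ENSMUSG00000097391, chr12:109729764-109749460). Their longest transcripts measure 14548, 8089 and 3822 nt.

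The 3′ ends of Malat1 and of the long form of Neat1 are shown because these libraries were made by poly(A) selection, and neither RNA ends in an ordinary poly(A) tail. As background, RNase P cuts both RNAs in front of a tRNA-like fold, and a genome-encoded run of A pairs with 2 U-rich stretches upstream to protect the end. The windows come from the GENCODE M21 transcripts (GRCm38, minus strand). The Malat1 window is chr19:5795918-5796097 and the Neat1 window chr19:5824708-5824807, the last 100 bases of its longest transcript. Capitals mark runs of at least 10 letters that stand in both windows.
Malat1: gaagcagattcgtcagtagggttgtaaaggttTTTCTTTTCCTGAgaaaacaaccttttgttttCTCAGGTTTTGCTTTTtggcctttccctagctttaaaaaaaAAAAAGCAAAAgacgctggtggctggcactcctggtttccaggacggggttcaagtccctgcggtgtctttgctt
Neat1, long form: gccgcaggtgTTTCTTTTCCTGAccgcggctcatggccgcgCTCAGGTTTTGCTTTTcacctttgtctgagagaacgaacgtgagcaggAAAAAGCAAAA
The windows shared 3 such runs in the same order, of 13, 16 and 11 letters. The first 2 are rich in T (U in the RNA), and the third is the A-rich stretch, with which the annotated Neat1 transcript ends. In Malat1 the stretch is preceded by further A to make a run of 12.

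The short form of Neat1 ends in the ordinary way. The annotated Neat1-202 transcript of 3004 nt has the poly(A) signal AATAAA within its last 50 bases, in capitals below (chr19:5842307-5842406, GRCm38, minus strand).
Neat1, short form: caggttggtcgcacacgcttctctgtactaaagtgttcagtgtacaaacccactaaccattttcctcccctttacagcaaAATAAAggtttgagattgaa
AATAAA on the transcript strand was also found in the last 50 bases of the longest transcript of Malat1, Kcnq1ot1, Meg3, Rian, Mirg and H19, and not in that of Neat1. The annotated Malat1 transcript runs past the tRNA-like part. The deposited counts are per gene, so reads of the long and short forms of Neat1 cannot be told apart.

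Tet2 itself was read before all else. Its gene-level count was higher, not lower, in the libraries labelled TET2KO (log2 fold change 1.49 ± 0.29 SE, adjusted p = 0.00652 by edgeR's quasi-likelihood test). With the length trend removed its value was 0.27 (adjusted p = 0.215, edgeR). This count cannot check the labels, because endothelial cells are mixed with others here and the deleted exons are not known. Directions given here follow the labels. Library totals ran from 22124844 to 30418909 reads. Mitochondrial genes took 9.83 to 10.5% of reads in WT and 14.5 to 18.1% in TET2KO. Of 14370 genes tested, 9037 passed (62.9%), 4806 higher and 4231 lower in TET2KO. Scaled by total reads instead, 6534 were higher and 2270 lower, and the median over all genes moved from 0.05 to 0.47 (log2). Fold changes followed transcript length across genes (Spearman rho 0.612 over 14341 genes, which share the same 6 libraries), so each member is also given after removal of this dependence on length and GC, called the trend-removed value. TET2KO replicate 2 stood apart from replicates 1 and 3: in 5 of 7 members it was the TET2KO library nearest to the WT mean.

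Of the 7 members, 6 passed the low-count filter and were tested. Malat1, Neat1, Meg3 and H19 rose, Rian fell, and Kcnq1ot1 did not pass the test, so that 5 of 6 passed against 62.9% of all tested genes (33.4% higher, 29.4% lower) and 53.5% of 904 tested long noncoding RNA genes. With the trend removed, Malat1 and Kcnq1ot1 were higher and Rian lower, so that 3 of 6 passed against 46.2% of all genes (21.9% higher, 24.3% lower) and 33.1% of long noncoding RNA genes. Mirg was below the filter, and its test uses a lower minimum of 5 reads that was chosen after the data were seen; there it fell, where 57.9% of 15771 genes passed (26.7% lower, 31.2% higher). Levels are given in CPM, reads scaled to a common library size with TMM factors, or as the authors' deposited TPM, which also divides by length and so allows levels to be compared between genes. Averaged over the WT libraries, deposited TPM was 9.45 ± 1.08 for Malat1, 5.35 ± 1.13 for Neat1, 2.43 ± 0.675 for H19 and 1.81 ± 0.166 for Rian (SD, n = 3). Mirg at 0.185 ± 0.126 TPM, Meg3 at 0.151 ± 0.0415 TPM and Kcnq1ot1 at 0.0278 ± 0.0114 TPM stood far below these. The WT ranges of Mirg and Meg3 overlapped, as did those of H19 and Rian, and the other neighbours in this order did not. By mean TPM over the 6 libraries, Malat1 ranked 49 among 7763 long noncoding RNA genes and Neat1 ranked 88.

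**Figure D1:**
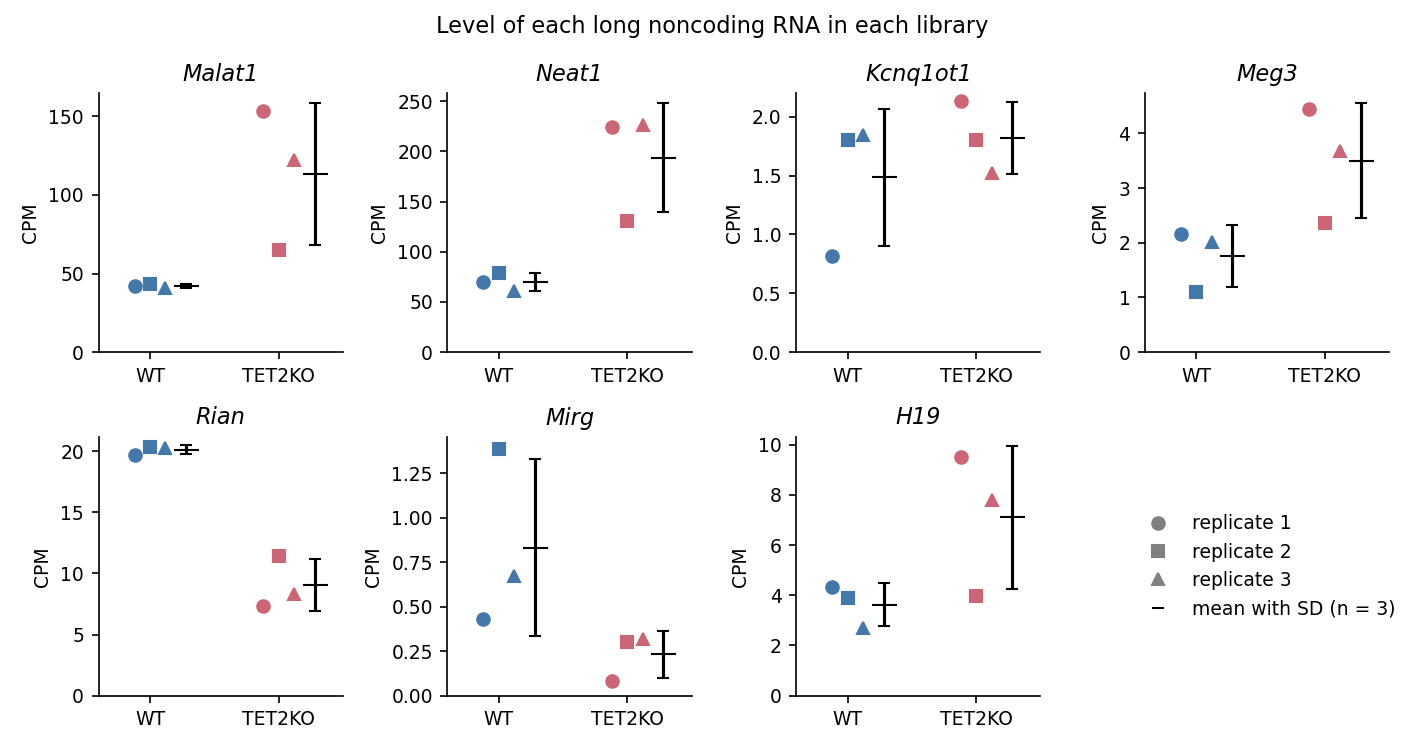
Level (CPM, TMM-scaled) of each member in each library, WT in blue and TET2KO in red, with marker shapes for replicates and bars for mean ± SD (n = 3). Malat1, Neat1 and Meg3 are higher and Rian and Mirg lower in every TET2KO library than in any WT library, while Kcnq1ot1 and H19 overlap.

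Malat1, the nuclear speckle RNA, held 41.8, 43.1 and 40.6 CPM in WT replicates 1, 2 and 3, against 153.6, 64.7 and 122.3 CPM in the 3 TET2KO replicates in the same order. The groups did not overlap, and TET2KO replicate 2 was the lowest of its group. Malat1 was 2.71-fold higher in TET2KO (log2 fold change 1.44 ± 0.30 SE, adjusted p = 0.00677, edgeR). The trend-removed value of 0.78 ± 0.19 also passed (adjusted p = 0.0119). On the TPM scale the means were 9.45 ± 1.08 in WT and 40.8 ± 19.4 in TET2KO.

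Neat1, the paraspeckle scaffold, stood at 69.8, 79.1 and 61.3 CPM in WT and at 223.9, 130.9 and 226.6 CPM in TET2KO. Every TET2KO library was above every WT library, as they were in 73.5% of tested genes in one direction or the other. Neat1 was 2.77-fold higher (log2 fold change 1.47 ± 0.25 SE, adjusted p = 0.00652, edgeR). Its trend-removed value was -0.15 ± 0.22 and did not pass (adjusted p = 0.602). At 20771 nt, Neat1 is one of 16 tested genes whose longest transcript exceeds 20000 nt. Both its trend-removed value and its deposited TPM rest on this length (20.8 kb implied by the TPM). How many of the reads came from the short form of 3004 nt is not known, so both values are uncertain to that extent.

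Reads of Malat1 over reads of Neat1 were nearly constant from library to library. The ratio was 0.599, 0.545 and 0.662 in WT and 0.686, 0.495 and 0.540 in TET2KO, and the groups overlapped. The difference of mean log2 ratios was -0.08 (exact two-sided permutation p = 0.7 over 20 relabellings; smallest possible p 0.1; adjusted over the 5 ratios compared, 0.7). With the trend removed the difference was 0.84.

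Genes flanking the pair on chromosome 19 were listed from their position. Of 14 tested, 10 rose and 0 fell, with a median log2 fold change of 1.38 against 0.05 over all genes. The shares over all genes were 33.4% higher and 29.4% lower. Trend removal left 3 higher and 0 lower, with a median of 0.15, beside 21.9% and 24.3% over all genes. Map3k11 (a mitogen-activated kinase kinase kinase) changed by 2.81 ± 0.43 on the log2 scale, Dpf2 (a BAF chromatin remodelling subunit) by 1.61 ± 0.25, Rela (an NF-kappaB subunit) by 3.06 ± 0.53 and Sipa1 (a Rap GTPase activator) by 2.23 ± 0.43. Each had an adjusted p of 0.00652 in edgeR's quasi-likelihood test. With the trend removed Map3k11, Dpf2 and Rela still passed (0.79, 1.21 and 1.87). Sipa1 did not (0.24, adjusted p = 0.259, edgeR). Frmd8, the protein-coding neighbour nearest to Neat1 among those listed, rose by 1.15 ± 0.27. Its trend-removed value had the opposite sign, -0.43, and did not pass (adjusted p = 0.0833, edgeR). The antisense gene Frmd8os had 29, 5 and 10 reads in WT and 9, 8 and 4 in TET2KO.

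Proteins of the paraspeckle list were read beside Neat1. Of 26 tested, 12 rose and 3 fell (median log2 fold change 0.40), beside 33.4% and 29.4% over all genes. With the trend removed 13 rose and 4 fell, beside 21.9% and 24.3%. The number lower was 1 with total library size (16 higher) and in each fit without 1 library, except that without TET2KO replicate 2, where it was 7. Total library size gave 6534 higher and 2270 lower over all 14370 genes. Sfpq, an RNA-binding protein needed for paraspeckle formation, stood at 10.8, 12.2 and 10.7 CPM in WT and at 48.3, 22.6 and 44.3 CPM in TET2KO. It rose by 1.77 ± 0.29 on the log2 scale (adjusted p = 0.00652, edgeR; trend-removed value 1.40). Nono, the partner of Sfpq, was at 28.0 ± 2.42 CPM in WT and 57.4 ± 11.2 CPM in TET2KO, a rise of 1.03 ± 0.19 on the log2 scale (adjusted p = 0.00652; 1.22 with the trend removed). Pspc1, the third member of that protein family, stood at 23.2 ± 1.90 CPM in WT and 17.7 ± 0.902 CPM in TET2KO and did not pass (log2 fold change -0.39 ± 0.15, adjusted p = 0.0526). Taf15, an RNA-binding protein found in paraspeckles, rose by 2.39 ± 0.40, and the stress granule protein Ubap2l by 2.33 ± 0.39. Groups did not overlap for Sfpq, Nono or Pspc1.

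Proteins of nuclear speckles, where Malat1 gathers, gave 16 higher and 7 lower of 31 tested (median 0.38), and 13 higher and 3 lower with the trend removed. Thrap3, a speckle protein of mRNA processing, rose from 14.02 ± 1.05 to 48.3 ± 18.2 CPM (log2 fold change 1.78 ± 0.29). Acin1, a splicing-associated protein, changed by 1.91 ± 0.35, the SR protein Srsf4 by 1.495 ± 0.27 and pinin (Pnn) by 1.31 ± 0.26, each with an adjusted p of 0.00652. The trend-removed value of Acin1 was 0.41 and did not pass (adjusted p = 0.0916, edgeR). Over all genes 33.4% were higher and 29.4% lower, and with the trend removed 21.9% and 24.3%. Scaled by total reads, 22 speckle genes were higher and 2 lower, beside 6534 and 2270 of all 14370 genes. Without WT replicate 1, 2 or 3 the number higher was 9, 10 or 7 and the number lower 4, 4 or 3, and without TET2KO replicate 3 it was 11 higher and 2 lower.

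Enzymes that cut and process such RNAs were a mixed list. Of 23 tested, 5 rose and 9 fell (median -0.21), beside 33.4% and 29.4% over all genes. With the trend removed 7 rose and 9 fell, beside 21.9% and 24.3%. Drosha and Dicer1, the nucleases of microRNA maturation, rose by 2.51 ± 0.38 and 2.23 ± 0.41 on the log2 scale. The RNase P subunit Rpp21 fell from 31.8 ± 4.66 to 12.7 ± 3.83 CPM (log2 fold change -1.32 ± 0.25; trend-removed value -0.23, adjusted p = 0.16), and Nhp2, a protein of H/ACA small ribonucleoproteins, fell from 57.1 ± 5.47 to 21.6 ± 6.198 CPM. Elac2, the nuclease that trims tRNA 3′ ends, changed by 1.37 ± 0.26; it was named after its value was seen.

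**Figure D2:**
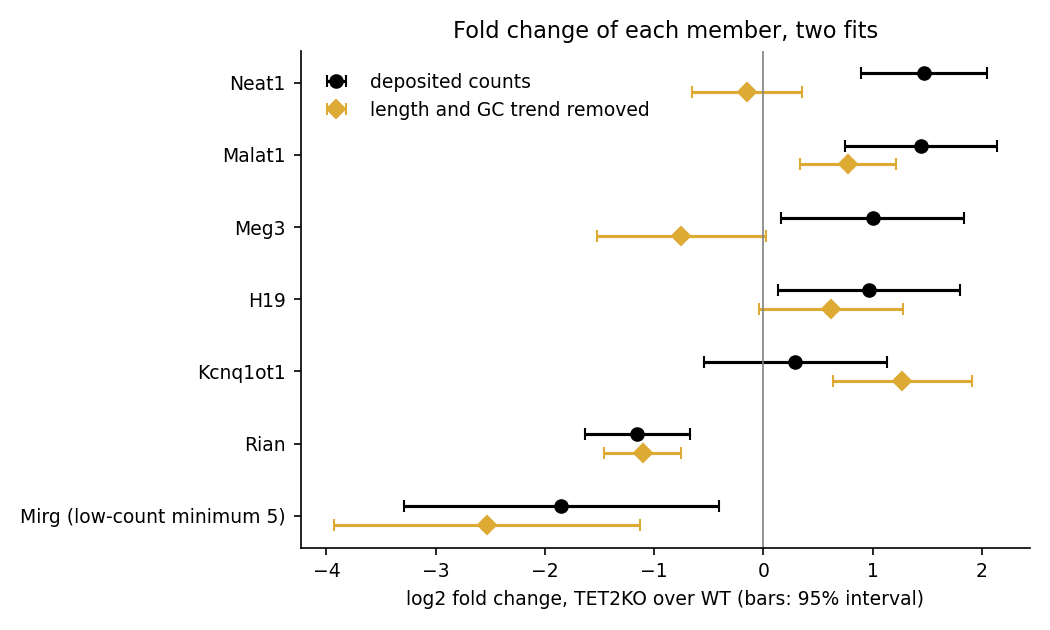
Log2 fold change of TET2KO over WT for each member with its 95% interval, from the deposited counts (black circles) and after removal of the dependence on length and GC (yellow diamonds). Malat1 and Rian keep their direction and call; the value of Neat1 falls to -0.15, that of Meg3 turns to -0.75, and that of Kcnq1ot1 moves to 1.27.

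On the deposited counts Meg3 rose, whereas Rian and Mirg, downstream on the same strand in the Dlk1-Dio3 region, fell. The direction of Meg3 turned with the length and GC trend removed, and all 3 values were then negative. Meg3, a maternally expressed RNA at the head of the cluster, had 45, 27 and 36 reads in WT and 165, 71 and 116 in TET2KO. These gave 2.16, 1.10 and 2.02 CPM in the WT libraries and 4.45, 2.37 and 3.68 CPM in the TET2KO libraries, and the highest WT and lowest TET2KO libraries lay close together. Meg3 was 2.00-fold higher (log2 fold change 1.00 ± 0.36 SE, adjusted p = 0.0413, edgeR). The call was lost when any library but TET2KO replicate 2 was left out: without WT replicate 1, 2 or 3 or TET2KO replicate 1 or 3 the adjusted p was 0.0649, 0.133, 0.0819, 0.101 and 0.0972, and without TET2KO replicate 2 it was 0.00109. The trend-removed value had the opposite sign, -0.75 ± 0.34 (adjusted p = 0.101), and passed as a fall when TET2KO replicate 2 was also left out (-0.98, adjusted p = 0.00766).

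Rian, the host of small nucleolar RNAs, was the most even member among WT libraries, at 19.7, 20.4 and 20.3 CPM. TET2KO libraries held 7.37, 11.4 and 8.32 CPM, all below WT, with replicate 2 again nearest to WT. Rian was 2.23-fold lower (log2 fold change -1.16 ± 0.21 SE, adjusted p = 0.00652, edgeR), and the trend-removed value was -1.11 ± 0.15 (adjusted p = 0.00396). It passed in every leave-one-library-out fit (log2 fold change -1.34 to -0.99). On the deposited TPM scale Rian was at 1.75, 2.00 and 1.69 in WT and 1.14, 1.46 and 1.15 in TET2KO, which did not overlap, but limma on log2(TPM + 1) gave -0.32 with an adjusted p of 0.117. That setting changes both the scaling and the added 1; with total library size on the counts the value was -0.73 (adjusted p = 0.0169, edgeR).

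Mirg, the host of a microRNA cluster, had 9, 34 and 12 reads in WT and 3, 9 and 10 in TET2KO. In CPM these were 0.432, 1.39 and 0.672 in WT and 0.0809, 0.300 and 0.318 in TET2KO. The groups did not overlap, and WT replicate 2 held 34 of the 55 WT reads. With the lower count minimum Mirg was 3.60-fold lower (log2 fold change -1.85 ± 0.62 SE, adjusted p = 0.0347, edgeR), with a trend-removed value of -2.53 ± 0.63 (adjusted p = 0.0111). Without WT replicate 2 or 3 or TET2KO replicate 1 or 3 the adjusted p was 0.171, 0.0685, 0.0895 and 0.0656.

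Within a library, scaling cancels in the ratio of 2 genes. Reads of Rian per read of Meg3 were 9.02, 18.1 and 9.93 in WT and 1.65, 4.79 and 2.25 in TET2KO. The ratio was thus 4.50-fold lower on average (difference of mean log2 ratios -2.17, exact two-sided permutation p = 0.1, the smallest that 3 against 3 libraries can give; adjusted over 5 ratios, 0.125). Reads of Mirg per read of Meg3 were 0.209, 1.26 and 0.343 in WT and 0.0211, 0.133 and 0.0901 in TET2KO, a difference of -2.82 (exact permutation p = 0.1, adjusted 0.125). Neither ratio overlapped between groups. With the length and GC trend removed the differences were -0.49 for Rian over Meg3 and -1.89 for Mirg over Meg3.

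**Figure D3:**
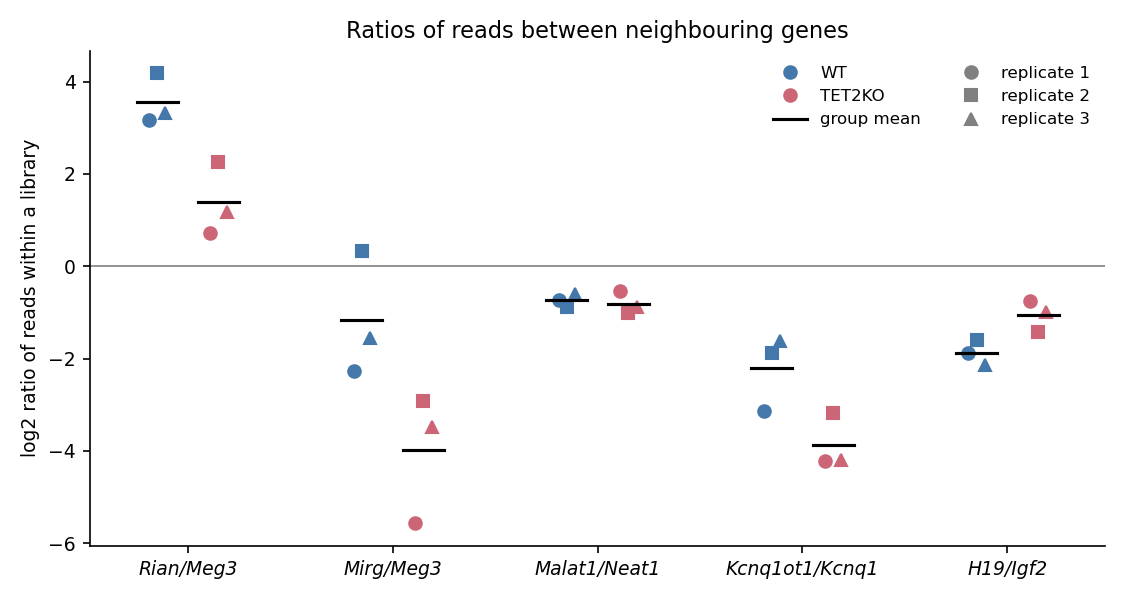
Log2 ratio of reads between 2 genes within each library, WT in blue and TET2KO in red, with marker shapes for replicates and black lines for group means. Ratios of Rian and Mirg to Meg3 and of Kcnq1ot1 to Kcnq1 are lower in all 3 TET2KO libraries, that of H19 to Igf2 is higher, and that of Malat1 to Neat1 overlaps.

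The 300-base windows around the annotated starts of Meg3 and Rian are shown because these 2 RNAs of 1 cluster changed in opposite directions on the deposited counts, though not with the trend removed (-0.75 and -1.11). They come from the RefSeq promoter table (GRCm38.p6, plus strand), which held Malat1, Kcnq1ot1, Meg3, Rian and Mirg. A total of 3 motifs were searched on both strands: the cAMP response element TGACGTCA, the TATA box TATAAA and the CCAAT box CCAAT, with matches in capitals. The table has 2 Meg3 windows, of which the one at the annotated gene start is printed, chr12:109540746-109541045; the Rian window is chr12:109603695-109603994.
Meg3: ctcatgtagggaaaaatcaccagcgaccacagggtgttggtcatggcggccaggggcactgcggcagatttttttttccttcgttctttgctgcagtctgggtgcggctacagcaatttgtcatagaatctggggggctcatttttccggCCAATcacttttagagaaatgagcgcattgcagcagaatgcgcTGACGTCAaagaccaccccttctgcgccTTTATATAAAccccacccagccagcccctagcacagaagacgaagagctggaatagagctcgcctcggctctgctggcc
Rian: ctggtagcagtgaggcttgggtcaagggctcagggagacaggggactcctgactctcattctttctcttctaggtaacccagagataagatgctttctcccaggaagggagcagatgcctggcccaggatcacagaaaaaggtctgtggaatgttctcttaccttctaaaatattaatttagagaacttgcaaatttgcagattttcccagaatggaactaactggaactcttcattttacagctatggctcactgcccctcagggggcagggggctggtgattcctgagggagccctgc
The printed Meg3 window held 1 TGACGTCA, 1 CCAAT and 2 overlapping matches to TATAAA, one on each strand. Over all 32851 windows of that table, TGACGTCA stood in 1.79%, TATAAA in 13.6% and CCAAT in 37.4%. The Rian window held 0 of these motifs and 0 CG dinucleotides, against 13 CG in the printed Meg3 window and a median of 7 over all windows. The second Meg3 window, further downstream (chr12:109545148-109545447), held 1 CG and 0 of these motifs. The window the table gives for Mirg (chr12:109734731-109735030) lies inside the gene, downstream of the GENCODE start given above, and held 10 CG and 1 CCAAT.

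Small RNAs are cut from these transcripts, and their sequences show what the hosts carry. RefSeq places 26 mature microRNAs inside Mirg on its strand, 6 inside Rian, 3 inside Meg3 and 2 inside H19. Among them 1 pair shared a seed (bases 2 to 8, in capitals), miR-453 and miR-496a-5p, both in Mirg. Those 2 are shown with miR-370-3p from Rian and both arms of miR-675 from H19 (GRCm38.p6).
miR-453: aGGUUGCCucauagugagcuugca
miR-496a-5p: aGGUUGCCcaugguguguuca
miR-370-3p: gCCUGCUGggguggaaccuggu
miR-675-5p: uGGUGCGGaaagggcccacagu
miR-675-3p: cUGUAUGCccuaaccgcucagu
Mature microRNAs lack a poly(A) tail and were not measured by these libraries. The count table has 92 rows for microRNA, small nucleolar and other small RNA genes between the start of Meg3 and the end of Mirg, and they held 10 reads in all over the 6 libraries.

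The protein-coding genes of the region, which are active on the paternal copy, were barely read. Dlk1, a membrane protein of the Notch-ligand type, had 5, 0 and 2 reads in WT and 4, 1 and 0 in TET2KO. Dio3, the deiodinase that inactivates thyroid hormone, had 2, 7 and 0 reads in WT and 4, 2 and 2 in TET2KO. Rtl1, a retrotransposon-derived gene, had 0 reads in each WT library, a count that allows up to 3, and 12, 0 and 4 in TET2KO. None was tested, and their changes were not detectable at this depth.

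On chromosome 7, H19 and its protein-coding neighbour Igf2 (72.6 kb apart) share enhancers and an imprinting control region bound by Ctcf on the unmethylated copy. H19 stood at 4.32, 3.88 and 2.69 CPM in WT and at 9.52, 3.97 and 7.81 CPM in TET2KO. TET2KO replicate 2 lay between the WT libraries, so the groups overlapped in CPM. Deposited TPM was 2.83, 2.81 and 1.65 in WT and 10.9, 3.74 and 7.96 in TET2KO, which did not overlap. On log2(TPM + 1) the median change over all genes was 0.41. H19 rose by 0.97 ± 0.36 on the log2 scale (1.95-fold, adjusted p = 0.0462, edgeR). The call was near the threshold: the adjusted p was between 0.0796 and 0.153 in each fit without WT replicate 1, 2 or 3 or TET2KO replicate 1 or 3, and 0.000104 without TET2KO replicate 2. The trend-removed value was 0.62 ± 0.29 (adjusted p = 0.11). It passed with lengths of merged exons (0.98, adjusted p = 0.039) and with TET2KO replicate 2 also left out (0.84, adjusted p = 0.00184).

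Igf2, the fetal growth factor, held 15.8, 11.8 and 11.9 CPM in the WT libraries and 16.1, 10.7 and 15.6 CPM in the TET2KO libraries. The groups overlapped and the log2 fold change of 0.10 ± 0.23 did not pass (adjusted p = 0.717); the trend-removed value was -1.47 (adjusted p = 0.00396). Reads of H19 per read of Igf2 were 0.274, 0.331 and 0.227 in WT and 0.594, 0.373 and 0.501 in TET2KO, which did not overlap. The difference of mean log2 ratios was 0.81 (1.75-fold, exact permutation p = 0.1, adjusted 0.125), and with the trend removed it was 2.06.

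Kcnq1ot1, which silences neighbouring genes in cis on the paternal copy, had few reads for its length. There were 17, 44 and 33 reads in WT and 79, 54 and 48 in TET2KO, that is 0.816, 1.80 and 1.85 CPM against 2.13, 1.80 and 1.52 CPM. The groups overlapped, and the log2 fold change of 0.29 ± 0.36 (95% interval -0.54 to 1.13) did not pass (adjusted p = 0.496, edgeR). The trend-removed value was 1.27 ± 0.28 (adjusted p = 0.00767), at a length where only 16 genes over 20000 nt set the trend; with lengths of merged exons it was -0.10 (adjusted p = 0.814). TPM by library was 0.0150, 0.0366 and 0.0319 in WT and 0.0683, 0.0477 and 0.0437 in TET2KO. The sources used here do not say whether the counting used strand. Without strand, reads from introns of Kcnq1 cannot be told apart from Kcnq1ot1.

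Kcnq1, a cardiac potassium channel subunit and the gene around Kcnq1ot1, rose from 7.34, 6.62 and 5.77 CPM in WT to 40.0, 16.4 and 28.4 CPM in TET2KO. Its log2 fold change was 2.10 ± 0.32 (adjusted p = 0.00652, edgeR) and its trend-removed value 1.03 (adjusted p = 0.00405). Reads of Kcnq1ot1 per read of Kcnq1 were 0.114, 0.274 and 0.324 in WT and 0.0537, 0.111 and 0.0543 in TET2KO. The difference of mean log2 ratios was -1.66 (exact permutation p = 0.1, adjusted 0.125), and 0.17 with the trend removed. Cdkn1c, a cyclin-dependent kinase inhibitor of the same domain, stood at 18.9 ± 2.16 CPM in WT and 16.1 ± 2.11 CPM in TET2KO and did not pass (log2 fold change -0.24 ± 0.18, adjusted p = 0.272).

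Across the distal chromosome 7 list, 4 of 10 tested genes rose and 1 fell, with a median of 0.19. Over all genes 33.4% rose and 29.4% fell. The rises were Kcnq1, Osbpl5 (an oxysterol-binding protein, 1.76 ± 0.33), Dhcr7 (the last enzyme of cholesterol synthesis, 1.25 ± 0.27) and Tnfrsf23 (a decoy receptor for TRAIL, 1.68 ± 0.49). The fall was Tssc4 (-0.69 ± 0.20, adjusted p = 0.0194 by edgeR), named after its value was seen, and it was lost with total library size and without WT replicate 3 or TET2KO replicate 1 or 3. With the trend removed 4 rose and 3 fell, beside 21.9% and 24.3% over all genes. Osbpl5 was then at 0.26 and did not pass (adjusted p = 0.179, edgeR).

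Factors that set or read imprints gave 16 higher and 2 lower of 23 tested, with a median of 1.07 against 0.05 over all genes. The shares over all genes were 33.4% higher and 29.4% lower. Trend removal left 7 higher and 2 lower, with a median of 0.23, beside 21.9% and 24.3% over all genes. Without WT replicate 3 it was 9 higher and 0 lower, and with total library size 19 and 0, where all 14370 genes gave 6534 and 2270. The 2 falls were also lost without WT replicate 1 or 2 or TET2KO replicate 3, and 1 gene was lower without TET2KO replicate 1. Zfp445, a zinc finger protein that protects imprints, rose from 18.2 ± 2.25 to 38.3 ± 3.97 CPM (log2 fold change 1.07 ± 0.17; trend-removed value 0.51). Dnmt3a, a de novo DNA methyltransferase, rose by 2.44 ± 0.40 and Ehmt2, a histone H3 lysine methyltransferase, by 0.91 ± 0.18, where the trend-removed value of Ehmt2 was -0.92. Trim28, the corepressor recruited by such zinc finger proteins, rose from 13.1 ± 0.398 to 35.4 ± 13.6 CPM (1.44 ± 0.29), with a trend-removed value of -0.06 (adjusted p = 0.645). Ctcf stood at 29.4 ± 1.30 CPM in WT and 36.8 ± 1.83 CPM in TET2KO and did not pass (0.32 ± 0.14, adjusted p = 0.0724), nor did Zfp57 at 0.696 ± 0.0241 and 1.10 ± 0.371 CPM (0.66 ± 0.34, adjusted p = 0.126).

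Of 32 other imprinted genes tested, 13 were higher and 8 lower (median 0.17), beside 33.4% higher and 29.4% lower over all genes. With the trend removed 7 were higher and 5 lower, beside 21.9% and 24.3% over all genes. With total library size 15 were higher and 1 lower, beside 6534 and 2270 of all 14370 genes. The number lower was 4, 3, 5 and 2 without WT replicate 1 or 3 or TET2KO replicate 1 or 3. Peg13, itself a long noncoding RNA, rose from 11.4 ± 1.83 to 32.7 ± 8.26 CPM (log2 fold change 1.52 ± 0.24; trend-removed value 0.46, adjusted p = 0.025). The growth factor adaptors Gab1 and Grb10 changed by 1.85 ± 0.31 and 1.86 ± 0.33, and the ubiquitin ligase Ube3a by 1.08 ± 0.20. Each of these 4 had an adjusted p of 0.00652 in edgeR's test.

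Most of the long noncoding RNA genes that passed the test fell, unlike Malat1, Neat1, Meg3 and H19. Of the 904 tested long noncoding RNA genes, 433 were lower (47.9%) and 51 higher (5.64%), with a median log2 fold change of -0.92 against 0.17 for 12915 protein-coding genes. With the trend removed, 216 were lower (23.9%) and 83 higher (9.18%), and the median was -0.28. Scaled by total reads, 237 were lower and 90 higher, beside 2270 and 6534 of all 14370 genes. Leaving out 1 library at a time gave 222 (without TET2KO replicate 3) to 533 (without TET2KO replicate 2) lower long noncoding RNA genes. The number higher was then 26 (without WT replicate 1) to 68 (without TET2KO replicate 2). Both counts moved by over 1.5 times without WT replicate 1 (267 lower, 26 higher), WT replicate 3 (267 and 27) or TET2KO replicate 3 (222 and 29), the lower count also without TET2KO replicate 1 (286) and the higher count also without WT replicate 2 (31). More were lower than higher in each of these fits. The class is shorter than protein-coding genes, with a median longest transcript of 1793 nt against 3159 nt. Among the 39 long noncoding RNA genes of at least 5000 nt, which include 5 of the tested members, 20.5% were higher and 30.8% lower; among 865 shorter ones 4.97% were higher and 48.7% lower. Trend removal moved the median of the 39 from -0.31 to -0.98, and that of the shorter ones from -0.93 to -0.26. The trend-removed values of Rian (-1.11) and Meg3 (-0.75) lie near the median of these 39. The 6 tested members had a median of 0.98, and 0.23 with the trend removed.

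**Figure D4:**
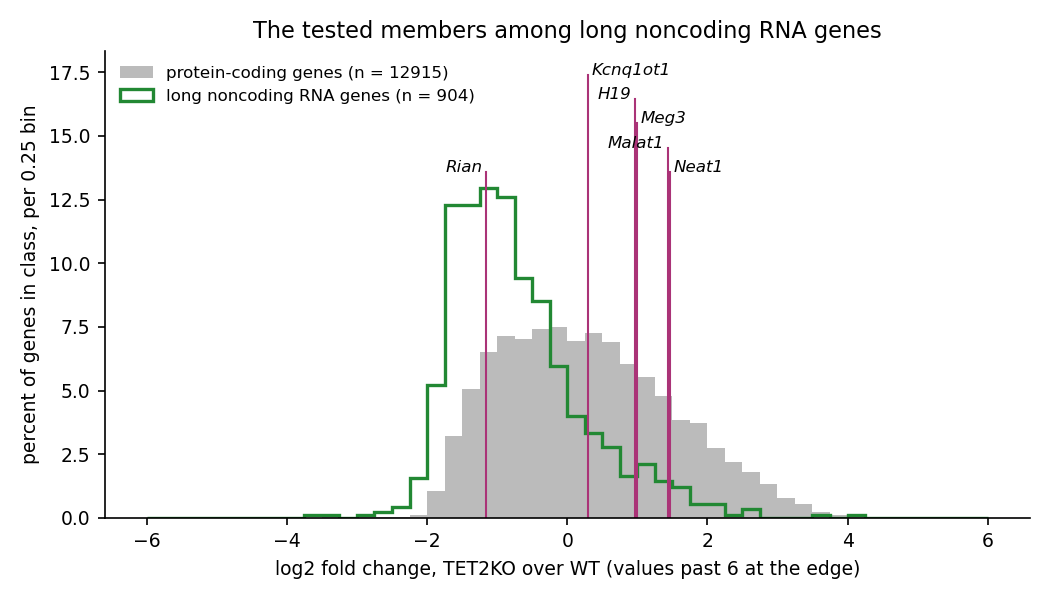
Distribution of log2 fold changes (TET2KO over WT) over protein-coding genes (grey) and long noncoding RNA genes (green line), as percent of each class per bin of 0.25, with the tested members marked by purple lines. Rian lies near the class median of -0.92, and Malat1, Neat1, Meg3 and H19 lie between 0.97 and 1.47, on the sparse right side of the class.

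Other well-known long noncoding RNAs followed Rian rather than Malat1 in direction. Of 27 tested in that list, 20 fell and 2 rose, with a median of -1.21, and with the trend removed 14 fell and 2 rose (median -0.54). Over all tested long noncoding RNA genes 47.9% fell and 5.64% rose, and with the trend removed 23.9% and 9.18%. Mir99ahg, the host of a microRNA cluster, fell from 44.9 ± 3.56 to 11.6 ± 5.32 CPM (log2 fold change -1.95 ± 0.31), and Mir22hg, the host of miR-22, from 40.0 ± 7.26 to 13.9 ± 3.61 CPM (-1.52 ± 0.24). The small nucleolar RNA hosts Snhg8 and Snhg1 changed by -1.58 ± 0.25 and -1.80 ± 0.30; the trend-removed value of Snhg8 was -0.30 and did not pass (adjusted p = 0.118). The 2 that rose were Tug1 (1.73 ± 0.32; trend-removed value 1.70) and 2900097C17Rik, the mouse Norad gene (1.64 ± 0.29; trend-removed value 1.16). They were named after their values were seen.

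**Figure D5:**
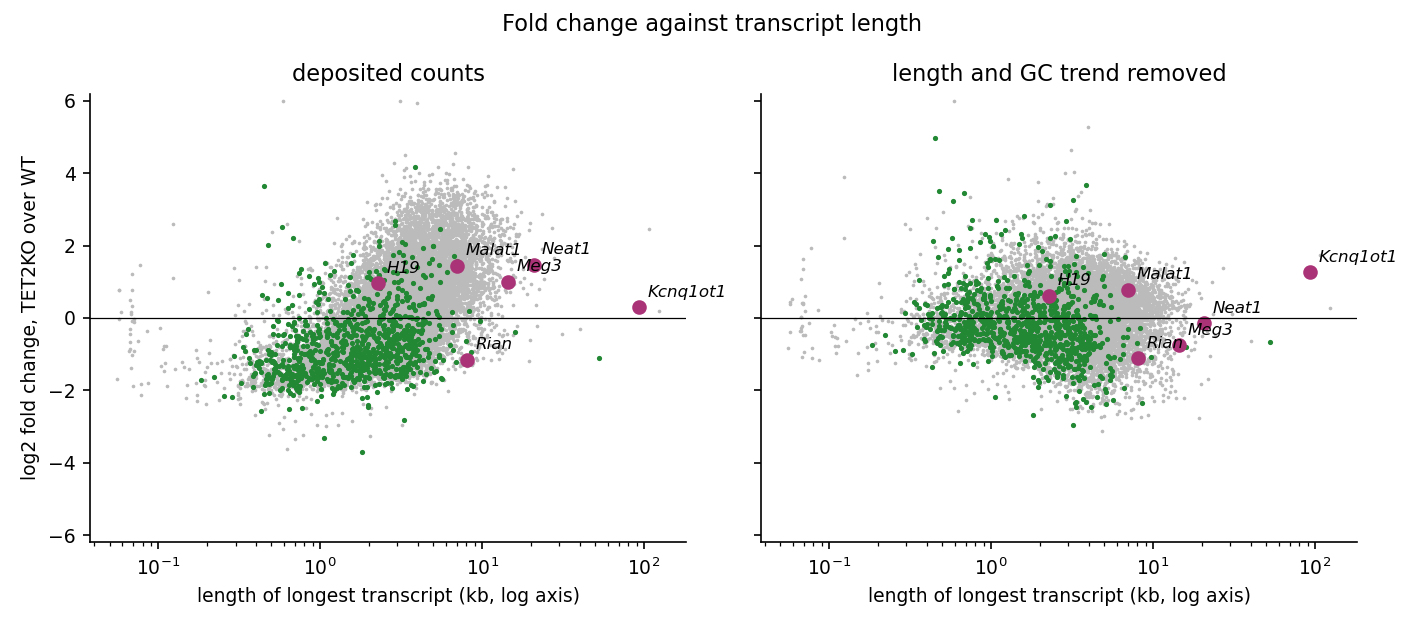
Log2 fold change (TET2KO over WT) against the length of the longest annotated transcript (kb, log axis), from the deposited counts (left) and with the length and GC trend removed (right), for all tested genes (grey), long noncoding RNA genes (green) and the 6 tested members (purple). On the left the cloud climbs with length and Neat1 and Meg3 lie within it; on the right Malat1, H19 and Kcnq1ot1 lie above 0 and Rian and Meg3 below.

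Genes whose level followed a member most closely over the 6 libraries were looked up among 10603 named genes, as a description only. Malat1 was followed most closely by Trim28, Celf2 and Dhx38 (Pearson r of log2 CPM 0.9998 for each, n = 6 libraries), and 3169 genes had an r above 0.95 with it. Neat1 was followed by Dennd5a, Tmtc1 and Repin1 (0.9998, 0.9992 and 0.9989), and Rian by Zfp975, Med17 and Tbpl1 (0.9994, 0.9991 and 0.9989), with 2975 and 2870 genes above 0.95. H19 was nearest to Itpr1, Rtn4 and Fzd7 (0.998 each), with 618 genes above 0.95. Meg3 was nearest to Edrf1, D3Ertd254e and Zfp746 (0.994, 0.987 and 0.985), with 76 genes above 0.95. Kcnq1ot1 was nearest to Zc3h15, Sdr42e1 and Zbtb17 (0.985, 0.978 and 0.974), with 4 genes above 0.95. The 6 libraries fall in 2 groups that differ in 62.9% of genes, and an r over them is shared by many genes.

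Markers of cell types moved with the groups as well, and their part in these results was not tested. Over all genes 33.4% passed as higher and 29.4% as lower. Endothelial markers were higher for 10 and lower for 3 of 14, with summed levels of 591 to 657 CPM in WT and 685 to 1279 CPM in TET2KO. Cardiomyocyte markers were higher for 8 and lower for 5 of 14, with sums of 98124 to 118615 CPM in WT and 70191 to 75780 CPM in TET2KO. That sum is set mostly by the most abundant markers. The median log2 fold change over the 14 was 0.98, and 0.40 with the trend removed. Red cell markers were lower for 5 of 5 tested, with sums of 1555 to 7037 CPM in WT and 165.0 to 741 CPM in TET2KO. Fibroblast markers were higher for 6 and lower for 4 of 12 (1934 to 2043 CPM against 1838 to 2246 CPM), mural markers higher for 5 and lower for 3 of 10 (3476 to 3753 CPM against 3490 to 3731 CPM), and macrophage markers higher for 4 and lower for 1 of 10 (202 to 223 CPM against 192 to 203 CPM). Of neuronal and glial markers, 4 of 10 passed the filter and 3 of these were lower (20.5 to 29.5 CPM against 12.4 to 15.7 CPM), with Th at 0 in every library. With total library size the number lower was 2 for cardiomyocyte, 1 for endothelial and 0 for fibroblast markers, beside 2270 of all 14370 genes. With the trend removed, 7 endothelial markers were higher and 2 lower, and 8 and 2 cardiomyocyte markers. Fibroblast markers were then 3 higher and 1 lower, mural 3 and 4, and macrophage 3 and 1. Red cell markers were 0 and 5, and neuronal and glial markers 0 and 2. The shares over all genes were then 21.9% and 24.3%. All 14 cardiomyocyte markers passed the filter in this tissue, labelled as heart.

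The authors' deposited table gives log2 fold changes of 1.38 for Malat1, 1.41 for Neat1, -1.21 for Rian, -1.91 for Mirg, 0.91 for H19, 0.94 for Meg3 and 0.24 for Kcnq1ot1. Of these, the authors' deposited table of significant genes lists Malat1, Neat1, Rian and Mirg; in it every absolute log2 fold change is above 1. H19 and Meg3 have adjusted p-values of 0.0277 and 0.0281 in the authors' deposited table and fall short of that fold.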

How the data were processed

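Poly(A)-selected RNA of 3 WT and 3 TET2KO hearts was sequenced as paired reads, per the labels' protocols. The build was GRCm38 and the tools named are STAR 2.5.2b, Subread 1.5.2 with featureCounts, Trimmomatic 0.36 and DESeq2, per the submitters' processing notes. The sources used here give neither the annotation release nor the strand setting. Deposited by the authors were raw counts of reads for each gene, TPM values (length-scaled), a normalised signal (counts divided by 1 size factor per library), and log2 fold changes with p-values. All per-sample columns were matched to samples by library name (0 unmatched).

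Counts were tested with edgeR 4.0.16 (R 4.3.3; quasi-likelihood F-test, robust, TMM, filterByExpr, Benjamini-Hochberg over all tested genes, threshold 0.05). The SE of a log2 fold change was derived from its F statistic. The trend-removed fit enters a smooth surface on length and GC of the longest GENCODE M21 transcript (mgcv 1.9.3, basis size 6 per axis) as offsets, and takes out any real difference that follows them. DESeq2 1.42.0, limma 3.58.1, other scalings, filters and libraries left out were alternatives. Promoter windows and microRNAs come from RefSeq tables (GRCm38.p6). Replicates of a group differed beyond sampling noise. Chi-square per degree of freedom was 12.63 to 16.25 for pairs of WT libraries and 46.15 to 292.6 for pairs of TET2KO libraries. On simulated counts the test recovered 21.1% of 95 genes simulated at a log2 change of 1 and 83.8% of 99 at 2. It also called 10 unchanged genes in that run on 14186. Far fewer genes were changed there than the 9037 called in the data, so these shares do not give the power of the test here.

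The members and gene lists were chosen with earlier results of these data known. Beyond the members, the text names genes chosen by role (Kcnq1, Cdkn1c, Igf2, Dlk1, Rtl1, Dio3, Sfpq, Nono, Pspc1, Ctcf, Zfp57, Trim28, Tet2), up to 4 with the smallest p past the test from each list, and the 3 most similar genes per tested member with mean log2 CPM of at least 1; cell marker lists are given as counts. Genes whose symbol is on several rows were left out of lists. A gene that this rule would name is not reported here.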

Additional observations from a re-analysis of the deposited data

How the results depend on the processing

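Malat1 kept its direction and its call in all 18 alternatives, with log2 fold changes of 0.74 to 1.88. Rian kept its call in all but limma on log2(TPM + 1), at -0.32. With the length and GC trend removed, Neat1 gave -0.15 (0.082 with merged exons, -0.20 with the replicate block as well), Meg3 -0.75 (-0.51 and -0.76), Kcnq1ot1 1.27 (1.25 with the block, -0.10 with merged exons) and H19 0.62 (0.58 with the block, 0.98 and past the test with merged exons). With TET2KO replicate 2 also left out, chosen after seeing the data, Neat1 gave -0.32 and did not pass (adjusted p = 0.0692, edgeR). In that fit Meg3 (-0.98), Kcnq1ot1 (1.11) and H19 (0.84) each passed. Removal of the trend over all 6 libraries moved the log2 ratio differences of Rian over Meg3 to -0.49, Malat1 over Neat1 to 0.84, Kcnq1ot1 over Kcnq1 to 0.17 and H19 over Igf2 to 2.06. H19 lost its call with DESeq2 size factors (0.92) and limma-voom (0.91), and Mirg with total library size (-1.47). The cause was not tested.

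Leaving out each library in turn gave 0.74 to 1.25 for Meg3, 0.73 to 1.27 for H19, -2.16 to -1.23 for Mirg, 1.20 to 1.74 for Malat1, 1.37 to 1.70 for Neat1, -1.34 to -0.99 for Rian and -0.01 to 0.46 for Kcnq1ot1. Members called higher numbered 2 to 4 (2 in each fit but that without TET2KO replicate 2) and lower 1 to 2. Genes called lower numbered 2479 to 5250, the lowest without TET2KO replicate 3 and 2771 without WT replicate 3, and genes called higher 3370 to 5928. With the trend removed 2 members were called higher, also with merged exons and with the block, and 3 were called lower when TET2KO replicate 2 was left out too. Members called lower were 2 with no low-count filter or the minimum of 5, and 0 with limma on log2(TPM + 1). Genes called higher were 3145 with the trend removed and 2741 with the block as well; genes called lower were 2270 with total library size and 1832 with limma on log2(TPM + 1), where 7166 were higher. Of 320 counts over the other gene lists, 234 were within 1.5 times.

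The replicate numbers were not taken as pairs. Deviations of same-numbered libraries correlated at 0.0386, -0.2305 and -0.0126, and those of differently numbered libraries at -0.2687 to 0.2612. With 3 libraries per group these values cannot exclude a pairing. With the replicate block 7618 genes were called, H19 gave 0.90 (adjusted p = 0.075, edgeR), and no other member's call changed. Depth limits Mirg, Meg3 and Kcnq1ot1, each with at most 165 reads in a library.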
